A study of Drosophila melanogaster with 4 samples.

Results

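The clusters described here are the H3K9me1-enriched regions in the outermost 1 Mb of assembled sequence on the telomeric side of 4 Drosophila melanogaster chromosome arms, 2L, 3L, X and 3R. A cluster belonged to the set when its midpoint lay within 1 to 1000000 on 2L, 3L or X, or within 26905054 to 27905053 on 3R (FlyBase release 5), where the telomeric end is the last base of the arm. ChIP replicate 1 held 540 such clusters among 15404 in its list (3.51%), ChIP replicate 2 held 517 among 14643 (3.53%), and the list of the whole series held 643 among 21525 (2.99%). The rule uses position and no measured value, although the arms and the 1 Mb limit were set with earlier results of these data known. Each megabase was set against the next 4 Mb of its own arm, 1000001 to 5000000 on 2L, 3L and X and 22905054 to 26905053 on 3R.

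All libraries came from head nuclei of mixed adult flies of the wild-type strain Oregon-R-modENCODE, with no mutation or treatment. There were 2 H3K9me1 ChIP libraries, whose antibody the labels call new lot 2, and 2 libraries of input chromatin, used as the background for calling clusters in the same-numbered ChIP library. Flies were raised in cages as populations, heads were separated by sieving, and chromatin was fixed with formaldehyde and sonicated. Sex was not given, nothing in the labels says that the replicates were separate fly populations, and heads mix neurons, glia and other cells. Coverage therefore cannot tell a mark carried in fewer cells from a weaker mark in every cell, and the labelled tissue could not be checked, since the lists name no genes.

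Monomethylated lysine 9 of histone H3 is an intermediate of the di- and trimethylated forms, which bind HP1 and mark heterochromatin. In human cells the monomethylated form has been mapped over active genes. Drosophila chromosome ends are kept up by telomeric retrotransposons (HeT-A, TAHRE and TART) in place of telomerase repeats, and reporter genes placed beside them are often silenced, which is known as telomeric position effect. The reference sequence comes from another strain than Oregon-R, so distances given here are from the end of the assembled arm and not from the physical end of an Oregon-R chromosome.

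Coverage, the percent of bases under clusters, is used throughout. Read depth is unknown, so a stretch without a cluster is one without a call. With 2 ChIP libraries an exact two-sided sign-flip permutation test cannot give a p below 0.5, so no difference was tested. Each is given in both replicates, with its mean and SD (n = 2) as the measure of spread. The series list is the authors' single list for the whole series and has no n and no SD. Across the 4 whole arms, replicate 1 covered 34.8%, replicate 2 covered 30.9% and the series list covered 53.8%.

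With a window of 1 Mb, H3K9me1 clusters covered more of the first megabase than of the next 4 Mb on 2L and 3L, by a smaller margin on 3R, and about as much on X. Over the 4 arms together coverage was 47.6% in the first Mb and 39.0% in the next 4 Mb in replicate 1, and 42.7% and 34.9% in replicate 2. The difference of 8.24 ± 0.538 percentage points (SD, n = 2) was larger than its spread between the replicates. With a window of 0.5 Mb it was 0.188 ± 0.193, and with 2 Mb it was 11.4 ± 0.328. Here and below, each such window was set against the 4 Mb that followed it, so the reference moved too. The reach of the window and the shift of the reference were not separated.

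On 2L the first Mb was covered to 51.6% and 47.1% in replicates 1 and 2, against 38.0% and 33.1% in the next 4 Mb. On 3L it was covered to 56.7% and 53.1%, against 42.3% and 37.5%. On each of these arms the replicates' values for the first Mb lie above both values for the next 4 Mb, and the differences were 13.8 ± 0.291 and 15.0 ± 0.849 points (SD, n = 2 each). On 3R the first Mb was covered to 43.1% and 35.9%, against 36.4% and 33.3%, so the ranges overlapped, and the difference was 4.64 ± 2.96 points. On X coverage was 39.1% and 34.8% in the first Mb and 39.4% and 35.5% in the next 4 Mb, a difference of -0.478 ± 0.330 points. On 3L the series list gave a difference of 7.46 points, and on X it gave -5.00. The order of the arms changed with the window. With 0.5 Mb, set against the 4 Mb that followed it, the difference was 11.7 on 2L, -0.773 on 3L, -19.8 on X and 9.66 on 3R. With 2 Mb it was 7.77 on 2L, 13.7 on 3L, 13.8 on X and 10.4 on 3R. Against the rest of the arm in place of the next 4 Mb, the X difference was 6.63. Here and below, the rest of the arm leaves out its innermost 1 Mb.

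**Figure D1:**
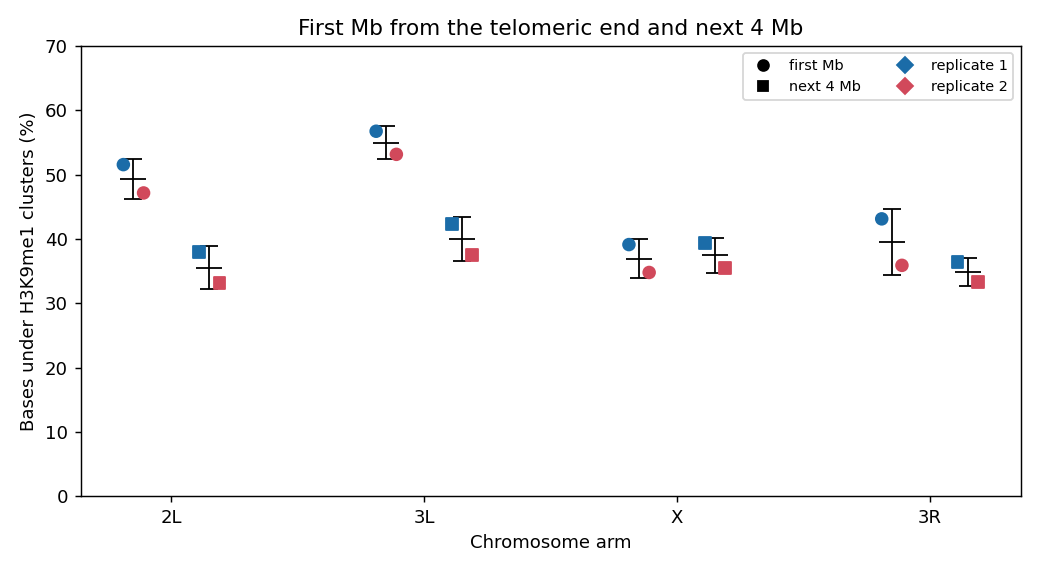
Percent of bases under H3K9me1 clusters (vertical axis) on each arm (horizontal axis), for the first Mb from the telomeric end (circles) and the next 4 Mb (squares); blue is ChIP replicate 1, red is ChIP replicate 2, and bars are the mean ± SD of the 2 replicates. The first Mb stands above the next 4 Mb on 2L and 3L, and the symbols overlap on X.

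Ranked among consecutive 1 Mb windows of its arm, counted from the telomeric end, the first Mb of 2L was the most covered of 23 in both replicates and in the series list. That of 3L ranked 2 of 24 in each list, behind window 23. On X it ranked 3 of 22 in replicate 1, 4 in replicate 2 and 9 in the series list, and the adjacent second Mb led the arm with 58.2% and 53.4%. On 3R it ranked 6 and 9 of 27 in the replicates, and the third Mb led with 48.1% and 43.3%.

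Within the first Mb, coverage was lowest towards the end of the chromosome. The outermost 250 kb of the 4 arms were covered to 31.0% in replicate 1 and 26.3% in replicate 2. The 3 segments of 250 kb that follow were covered to 51.2 ± 2.47%, 49.9 ± 4.30% and 51.1 ± 3.73% (SD, n = 2 each). The outermost segment thus lay 22.1 ± 0.169 points below the other 750 kb, far beyond the spread between replicates. It had the lowest coverage of the 4 segments on every arm in both replicates, except on 3R in replicate 2, where it was covered to 27.6% and the segment from 500 to 750 kb to 27.5%. Set against the 16 segments of 250 kb in the next 4 Mb, the outermost segment was below all 16 on X, in both replicates. By replicate means 5 of the 16 were lower on 3L, 6 on 3R and 13 on 2L, so on 2L the outermost segment (39.5 ± 3.11%) was not low for the arm. Median scores were also lowest in the outermost segment on 2L, 3L and X, at 0.567 ± 0.00625, 0.546 ± 0.0198 and 0.647 ± 0.0426.

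**Figure D2:**
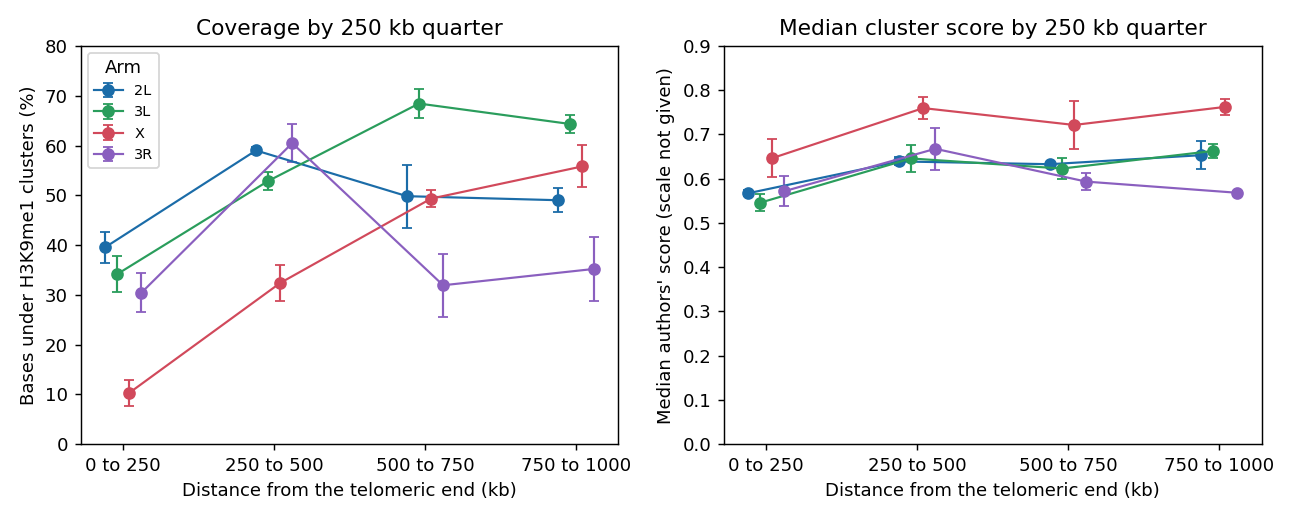
Percent of bases under H3K9me1 clusters (left) and median authors' cluster score, of unstated scale (right), in 4 segments of 250 kb by distance from the telomeric end in kb; points are means of the 2 ChIP replicates, bars are SD, colours are arms. Coverage on X climbs from 10.3% in the outermost segment to 55.8% in the innermost, whereas 3R peaks at 60.5% from 250 to 500 kb.

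Averaged over the arms, the outermost 50 kb were sparser still, though not on X, where they were covered to 20.6% and 17.5% in replicates 1 and 2, against 12.2% and 8.42% for the outermost 250 kb. Over the 4 arms they were covered to 18.6% in replicate 1 and 15.4% in replicate 2, which is 19.9 ± 0.598 points below the next 4 Mb. On 3L they held no cluster in any of the 3 lists. None of the 80 bins of 50 kb in the next 4 Mb of 3L was as low by its replicate mean, the lowest being 6.10%. That comparison depends on where the bin edges fall. Further in on 3L, the stretch from 1984705 to 2039529 (54.8 kb), which crosses a bin edge, also held no cluster in either replicate. Series clusters covered part of it. The other arms were within the range of their inner bins. On 2L 29 of 80 inner bins were lower than the outermost 50 kb (28.3 ± 1.43%), on X 12 of 80 (19.0 ± 2.23%) and on 3R 25 of 80 (20.6 ± 5.64%). Without 3L the shortfall of the outermost 50 kb was 13.3 ± 0.333 points.

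The clusters nearest the end lay at like positions in the replicates on 3 of the 4 arms. On X they spanned 5690 to 8136 in replicate 1 and 5688 to 8202 in replicate 2, with scores of 0.793 and 0.835. On 2L they spanned 7284 to 9320 and 7402 to 9347, with scores of 0.520 and 0.518. On 3L they began 53.9 kb and 53.8 kb from the end, at 53863 to 55239 and 53849 to 55279, with low scores of 0.190 and 0.324. Starts thus differed by little on these arms, although the 3L clusters scored far below the list medians of 0.610 and 0.589. On 3R the outermost replicate 1 cluster, 27894925 to 27896436, had no partner in replicate 2. There the outermost cluster of replicate 2 was 27891634 to 27894155 with a score of 0.797, and it overlapped a replicate 1 cluster with a score of 0.948.

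The series list reached closer to the end of X. It placed a cluster at 158 to 1259, 157 bp from the end, with a score of 1.08 against a list median of 0.425, where neither replicate had one. Its outermost clusters elsewhere lay at 7286 to 9430 on 2L, 52508 to 53579 on 3L and 27894844 to 27897379 on 3R. The 3L cluster also touched no replicate cluster.

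**Figure D3:**
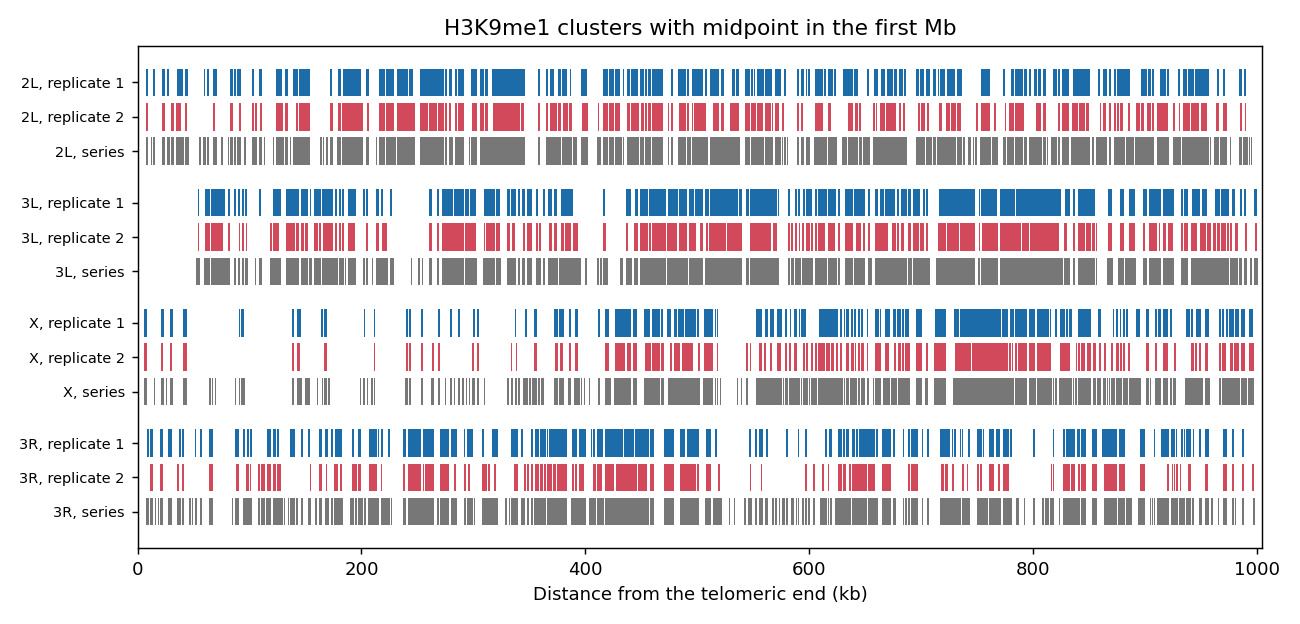
Clusters with midpoint in the first Mb (bars), by distance from the telomeric end in kb, in ChIP replicate 1 (blue), ChIP replicate 2 (red) and the series list (grey) on each arm. 3L has no cluster in the outermost 50 kb, X is thinly filled out to about 350 kb, and dense blocks recur at the same places in both replicates.

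The arms differed in how coverage changed inward, as 50 kb bins show. On X it stayed low for 350 kb, a limit chosen after the profile was seen: 12.5% and 9.30% of these bases were covered, by 22 and 18 clusters, against 53.5% and 48.5% in the remaining 650 kb. No stretch of 350 kb in the next 4 Mb of X, in 74 steps of 50 kb, was as low in either replicate. The lowest were 16.9% and 12.6%. The clusters there were also narrower and lower in score than in the remaining 650 kb, with median widths of 1760 and 1651 bp against 2584 and 2283 bp, and median scores of 0.671 and 0.620 against 0.773 and 0.734. The series list covered 25.3% of the 350 kb and 72.4% of the 650 kb. The lowest bins lay at 50001 to 100000, with 6.72% in replicate 1 and 0% in replicate 2, and at 150001 to 200000, with 9.16% and 5.48%. The highest lay at 750001 to 800000, with 91.5% and 91.0%, above all 80 inner bins of X, and at 450001 to 500000, with 72.3% and 63.4%.

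On 3L coverage was densest in the inner part of the megabase. From 450 to 850 kb, 8 bins in a row had a coverage of 50% or more in each replicate, the longest such run in the first Mb of any of the 4 arms and longer than any in their next 4 Mb, where the longest was 6 bins, on 3R. The bins at 750001 to 800000 (89.4% and 88.4%) and 450001 to 500000 (90.0% and 85.6%) each exceeded all 80 inner bins of 3L. The low bins were the empty outermost one and 400001 to 450000, with 18.8% and 16.9%.

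On 2L the profile was flatter. Coverage was 29.4% and 27.3% in the outermost bin and 27.8% and 10.3% at 50001 to 100000, and it was above the median of the inner bins in 17 of 20 bins. The peaks at 300001 to 350000 (76.0% and 71.9%) and 450001 to 500000 (66.0% and 64.0%) were exceeded by 3 and 6 of the 80 inner bins.

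On 3R a dense block was followed by a sparse one. The bins at 27455054 to 27505053 (80.5% and 74.8%) and 27505054 to 27555053 (76.1% and 71.2%), 350 to 450 kb from the end, were the highest. The bins 500 to 600 kb from the end, 27355054 to 27405053 (19.2% and 18.2%) and 27305054 to 27355053 (21.3% and 5.75%), were the lowest. The largest difference between replicates in a bin was also here. Bins of the 3R megabase differed by up to 25.9 points, against at most 17.4 points in the megabases of 2L, 3L and X. By Pearson's r across the 20 bins of a megabase, 2L was lower than 3R, at 0.909 against 0.923.

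**Figure D4:**
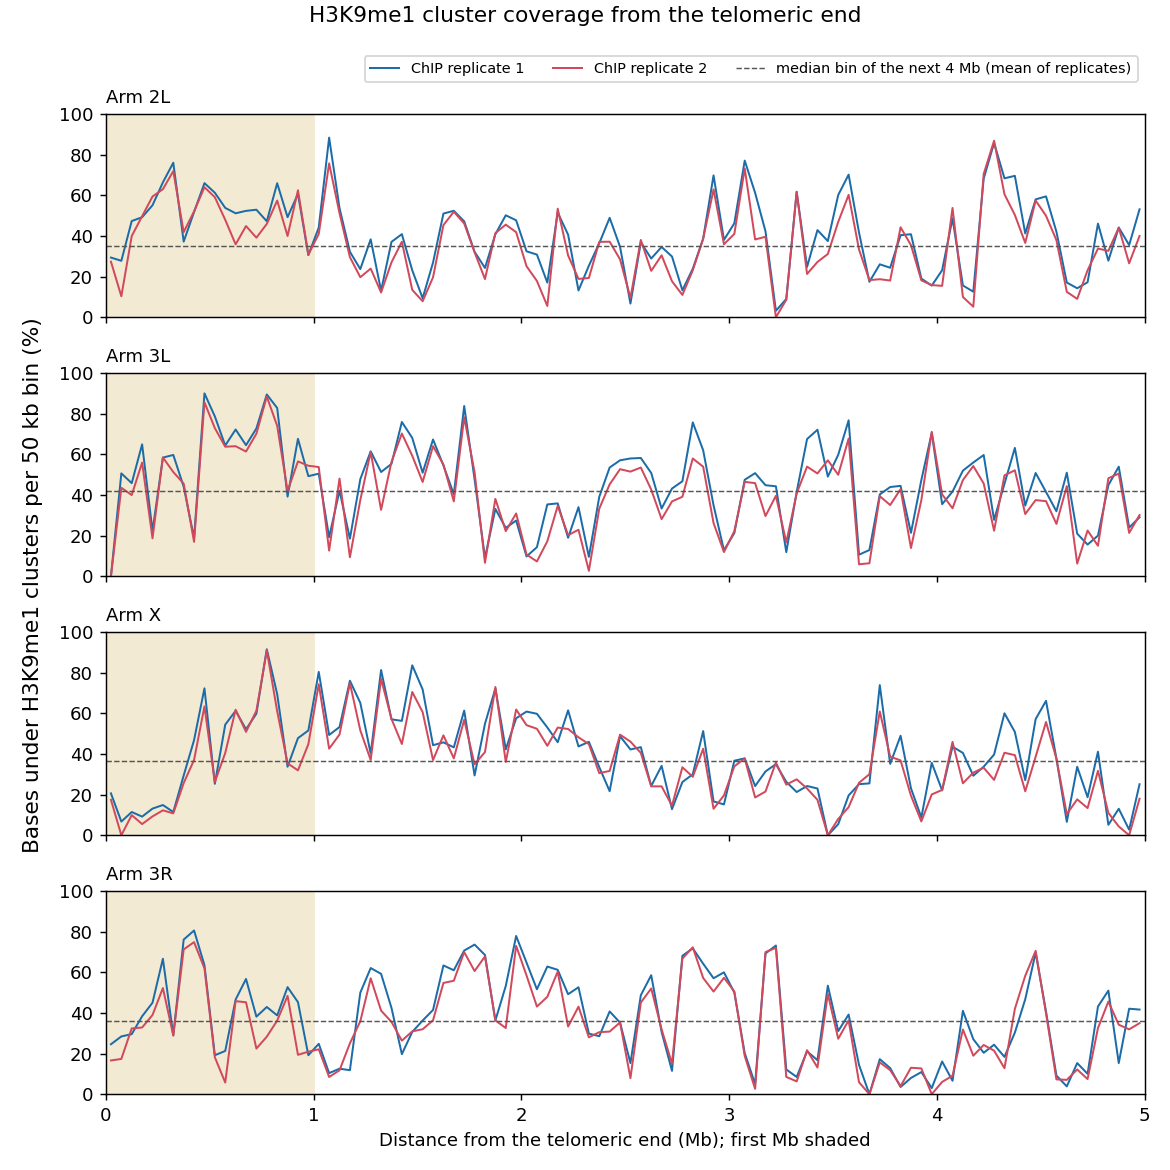
Percent of bases under H3K9me1 clusters in 50 kb bins (vertical axis) against distance from the telomeric end in Mb, for ChIP replicates 1 (blue) and 2 (red); the first Mb is shaded and the dashed line is the median of the 80 inner bins. The 3L and X profiles pass 85% between 0.75 and 0.80 Mb, and X starts below 25% and stays there out to 0.35 Mb.

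Densely covered bins were common in the first Mb. Of its 80 bins, 30 (37.5%) reached 50% in each replicate, against 67 of 320 (20.9%) in the next 4 Mb and 13.4% of all bins of the 4 whole arms. By arm the counts were 12 of 20 on 3L, 8 on 2L, 6 on X and 4 on 3R, where the share of 20.0% was below the 23.8% of its next 4 Mb. Nearly empty bins were not more common: 3 of 80 (3.75%) were covered to at most 10% in both replicates, against 5.63% of the next 4 Mb and 9.15% of the whole arms. Those 3 bins were 1 on 3L and 2 on X. Across bins the replicates ranked alike, with Spearman's rho of 0.956 over 80 bins in the first Mb and 0.947 over 320 bins in the next 4 Mb. Pearson's r was 0.962 and 0.949. By arm Pearson's r was 0.909, 0.983, 0.980 and 0.923 in the first Mb of 2L, 3L, X and 3R. In their next 4 Mb it was 0.954, 0.942, 0.943 and 0.957. These values are descriptions, since bins of 1 arm are neighbours and share libraries.

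Stretches free of clusters in both replicates and at least 20 kb long were unevenly spread over the arms. X had 6 of them in its first Mb, 202.0 kb in all, against 2 per Mb in its next 4 Mb. 3L had 3, 3R had 1 and 2L had 0, against 2.50, 4.75 and 3.25 per Mb further in. The longest on 3L ran from 1 to 53848 (53.8 kb), the longest on X from 44257 to 90356 (46.1 kb), and the stretch on 3R from 27358711 to 27384312 (25.6 kb). On 2L the longest was 18.4 kb. Series clusters covered 2.10% of the 3L stretch, 10.2% of that on X and 23.7% of that on 3R, so the call of an empty stretch depended on the list. In the next 4 Mb, a longer region, the longest such stretch was longer on every arm. It was 54.8 kb on 3L, 86.0 kb on X, 65.8 kb on 3R and 47.5 kb on 2L.

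In the replicates, clusters were wider in the first Mb of 2L and 3L and more numerous in that of 2L and 3R. Median width over the 4 arms was 2441 bp in the first Mb and 2170 bp in the next 4 Mb in replicate 1, and 2324 and 2068 bp in replicate 2, a difference of 263.5 ± 10.6 bp (SD, n = 2). By arm the difference was 560 ± 53.7 bp on 3L, 419 ± 102 bp on 2L, 124 ± 162 bp on X and 32.0 ± 108 bp on 3R, so on X and 3R it was within the spread between replicates. The number of clusters was 135 per Mb in the first Mb and 130.1 in the next 4 Mb in replicate 1, and 129.2 and 124.9 in replicate 2. By arm the number per Mb differed by 17.1 ± 2.65 on 2L, 15.2 ± 11.3 on 3R, -3.00 ± 3.89 on 3L and -10.8 ± 3.18 on X. The 4-arm difference of 4.66 ± 0.398 per Mb did not hold in the series list (-19.8), nor with a window of 0.5 Mb (-15.3), nor when clusters closer than 1 kb were joined (-2.34), and without 2L it was 0.500 ± 1.41. Without 3R it was 1.12 ± 3.24, and without X 9.79 ± 1.59. Clusters were also closer together, with a median spacing of 1808 and 1957 bp against 2329 and 2624 bp.

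Clusters of at least 10 kb made up 3.89% of the first Mb set in replicate 1 (21 clusters) and 2.71% in replicate 2 (14 clusters), against 1.23% and 0.865% of all clusters on the 4 whole arms. In the next 4 Mb the shares were 2.16% and 1.45%. On 3L there were 9 and 7 such clusters in 1 Mb, against 2 and 1 per Mb further in. They held 27.8% and 20.0% of the bases in clusters, against 5.66% and 3.19%. On 3R the direction was opposite in the replicates, with 3 and 1 per Mb against 3.75 and 2.75 per Mb. It was not opposite in the series list, with 11 per Mb on 3R against 7.75. In the series list 48 of 643 clusters (7.47%) were that wide, against 3.84% in the next 4 Mb and 2.55% on the whole arms. Every one of the replicates' wide clusters touched a cluster of the other replicate. On the whole arms 77.0% of all replicate 1 clusters and 85.2% of all replicate 2 clusters did, not matched for width. A single partner with 50% reciprocal overlap was found for 14 of the 21 in replicate 1 and 10 of the 14 in replicate 2. No share over all clusters is given for that rule, so these counts only describe the set.

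The widest region shared by the replicates was on 3L at 770477 to 824741 (54.3 kb, series score 0.947), split into 2 clusters in replicate 1 and 3 in replicate 2, which covered 97.8% and 95.0% of it. Beside it lay 713470 to 748533 (35.1 kb, 1 and 4 clusters), and nearer the end 507292 to 539734 (32.4 kb, 5 and 4 clusters). The corresponding region on X was 737802 to 778156 (40.4 kb, series score 0.961, covered to 97.5% and 97.8%), followed by 968730 to 984902 (16.2 kb, 78.0% and 63.0%) and 426049 to 441101 (15.1 kb, 96.1% and 83.8%). On 2L the widest were 316619 to 345698 (29.1 kb, 99.6% and 92.0%), 933413 to 957591 (24.2 kb, 89.5% and 78.5%) and 657301 to 678460 (21.2 kb, 75.7% and 78.8%). On 3R they were 27448354 to 27477415 (29.1 kb, 94.8% and 95.2%), 27521280 to 27539293 (18.0 kb, 97.0% and 92.4%) and 27173367 to 27187989 (14.6 kb, 79.97% and 52.7%).

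The highest series scores shared by both replicates on X were 1.27 at 711948 to 722689 (replicate scores 1.46 and 1.13), 1.14 at 728903 to 734369 (1.29 and 1.08) and 1.12 at 452352 to 458329 (1.25 and 1.13). The first 2 of these lie next to the widest X region, on its telomeric side. On 3L the highest were 1.16 at 311328 to 319542 (1.27 and 1.09), 0.971 at 65372 to 75966 (1.02 and 1.04) and the 54.3 kb region itself. On 2L they were 1.03 at 182955 to 199790 (1.08 and 1.03), 1.00 at 825933 to 832317 (1.18 and 0.932) and 0.973 at 260312 to 267476 (1.08 and 1.06). On 3R they were 1.05 at 27425559 to 27434406 (1.14 and 0.996), 0.876 at 27029630 to 27039702 (0.937 and 0.854) and 0.842 at 27891275 to 27894227 (0.948 and 0.797), the last 10.8 kb from the end. Where a replicate had several clusters in a region, its highest score is given.

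Median scores differed little between the first Mb and the next 4 Mb. The median was 0.649 in the first Mb and 0.652 in the next 4 Mb in replicate 1, and 0.634 and 0.626 in replicate 2. The difference of 0.00288 ± 0.00801 (SD, n = 2) was within the spread between replicates. Against the rest of the arm it was 0.0405 ± 0.00461, beyond that spread, and with windows of 0.5 and 2 Mb it was -0.0201 ± 0.00779 and 0.0292 ± 0.00402. By arm, with 1 Mb against the next 4 Mb, it was 0.0278 ± 0.00764 on 2L, 0.0284 ± 0.00394 on 3L, -0.0378 ± 0.0119 on X and -0.00906 ± 0.0112 on 3R. Wider clusters scored higher within the first Mb, with Spearman's rho of 0.708 over 540 clusters and 0.665 over 517, against 0.642 and 0.637 in the next 4 Mb. These correlations are across clusters of 1 library each and carry no p.

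The replicates overlapped slightly more in the first Mb than further in. The Jaccard index, which divides the bases common to the replicates by those in at least 1 of them, was 0.711 in the first Mb and 0.652 in the next 4 Mb. It is 1 value for the pair, and the difference of 0.0596 was about as large as its SD over the 4 arms (0.0603). Counted as the share of clusters with 50% reciprocal overlap, averaged over the replicates, the difference was 0.000364. By arm the index was 0.780 against 0.667 on 3L, 0.709 against 0.639 on 2L and 0.690 against 0.626 on X, but 0.645 against 0.675 on 3R. Coverage and cluster width were higher on 2L and 3L too, and their part in the overlap was not tested. Of the replicate 1 clusters, 434 of 540 (80.4%) shared at least 1 bp with replicate 2, against 77.9% in the next 4 Mb and 77.0% on the whole arms. For replicate 2 it was 462 of 517 (89.4%), against 85.9% and 85.2%. On 3R 68.3% of replicate 1 clusters had a partner, the lowest share of the 4 arms, against 78.6% in its next 4 Mb.

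Of the 643 series clusters, 345 (53.7%) touched both replicates, against 47.4% in the next 4 Mb and 46.6% on the whole arms. Another 124 touched 1 replicate and 174 (27.1%) neither, against 31.0% and 31.3%. Clusters touching neither were narrow and low in score (medians 1290 bp and 0.366), and clusters touching both were wide and higher (medians 4434 bp and 0.574). A like contrast was seen in the next 4 Mb, with medians of 1322 bp and 0.388 against 3763 bp and 0.554. How far touching depends on width alone was not tested. In the first Mb the share with both ran from 43.3% on 3R to 66.9% on 3L. None of the 31 regions of the series list typed as depleted lay in the first Mb of the 4 arms or in the next 4 Mb.

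At the inner boundary, 1 cluster of each list crossed the 1 Mb mark on 3L with its midpoint inside, 997877 to 1000380 in replicate 1 and 998401 to 1000585 in replicate 2, with scores of 0.489 and 0.617. The nearest clusters outside, 1004713 to 1008577 and 1002460 to 1004733, scored 0.566 and 0.652. On X a replicate 1 cluster at 999415 to 1002365 (score 0.719) crossed it with its midpoint outside, and the nearest inside were 992884 to 996956 (0.783) and 992718 to 997155 (0.914). In replicate 2 the nearest outside was 1000919 to 1002267 (0.582). On 2L clusters at 988914 to 990657 and 989193 to 990580 were the last inside (0.620 and 0.425). The nearest outside were 1014757 to 1018482 and 1015421 to 1017908 (0.778 and 0.626). On 3R those inside were 26916669 to 26918064 and 26907390 to 26908949 (0.653 and 0.798), and those outside 26880958 to 26884530 and 26890482 to 26891841 (1.00 and 0.531).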

How the data were processed

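The submitters' processing notes name Bowtie 0.12.7 as the aligner. The deposited files list clusters on FlyBase release 5, per the file headers, with a signed score per cluster given by the authors. How the score is scaled, which caller and threshold were used, and how the series list was made are not given in the sources used here. Scores were therefore compared within a list only. Clusters typed as enriched were assigned to a region by midpoint, and coverage was clipped to the region. Arm lengths came from the file headers. The replicates' shortest clusters in these megabases are 1302 and 1305 bp, the series list's 1001 bp. Named regions are, per arm, the outermost cluster of each list, the 3 widest and 3 highest-scoring series clusters that share at least 1 bp with both replicates, the longest stretch free of clusters in both replicates, the 2 highest and 2 lowest bins, and the clusters nearest the boundary. Arms, windows and rules were chosen with earlier results of these data known. The gene table used here is on release 6, so no gene or sequence was assigned to a region. Input libraries were not analysed here, and depth is unknown. Functions were tested on simulated lists. Software was SciPy 1.17.1, pandas 2.3.3, NumPy 2.4.6 and Matplotlib 3.10.9 under Python 3.11.15.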

Additional observations from a re-analysis of the deposited data

Results flagged for a closer look

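The sign of the difference between the first Mb and the next 4 Mb varied between arms, and each sign was the same in both replicates. Some of these differences were small or within the spread between replicates. These contrasts between arms were not tested. Coverage was higher in the first Mb on 2L, 3L and 3R, by 13.8, 15.0 and 4.64 percentage points. On X it was about equal, at -0.478 ± 0.330 points. The number of clusters was higher on 2L and 3R, by 17.1 and 15.2 per Mb, and lower on X, at -10.8 per Mb. On 3L it was -3.00 ± 3.89 per Mb, within the spread. In the series list the 2L difference was -22 per Mb. Median scores were higher on 2L and 3L, by 0.0278 and 0.0284, and lower on X, at -0.0378. On 3R the difference was -0.00906 ± 0.0112, also within the spread. On 3L more coverage thus came without more clusters. There were 136 per Mb against 141.75 in replicate 1, and 137 against 137.25 in replicate 2.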

How the results depend on the processing

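Of 122 settings over 11 results, 112 kept the sign of the difference. By size, 49 lay within 1 SD of the main value and 67 lay further off. Another 6 had the opposite sign where the main value exceeded its SD. Values are first Mb minus next 4 Mb unless stated, and the causes of the shifts were not tested. Windows of 0.5 and 2 Mb were each set against the 4 Mb that followed, so their reference moved with the window. The rest of the arm leaves out the innermost 1 Mb. Leaving out either replicate moved no value beyond 1 SD, which is so by construction with 2 replicates; the 4-arm coverage difference was then 7.86 to 8.62. The 4-arm coverage difference of 8.24 points was 7.22 when clusters below their list's median score were dropped (the score threshold), 5.66 in the series list, 12.2 against the rest of the arm, and 6.39, 5.99, 11.1 and 9.44 without 2L, 3L, X and 3R. With windows of 0.5 and 2 Mb it was 0.188 and 11.4. On 2L it was 12.7 with the score threshold, 14.7 with clusters of at least 2 kb, 14.7 with clusters closer than 1 kb joined, 13.0 in the series list, 17.1 against the rest of the arm, and 11.7 and 7.77 with windows of 0.5 and 2 Mb. On 3L it was 17.3 with clusters of at least 2 kb, 7.46 in the series list, 19.5 against the rest of the arm, -0.773 with 0.5 Mb and 13.7 with 2 Mb. On X it was -1.96 with the score threshold, -5.00 in the series list, 6.63 against the rest of the arm, -19.8 with 0.5 Mb and 13.8 with 2 Mb. On 3R it was 9.66 and 10.4 with 0.5 and 2 Mb.

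The difference in clusters per Mb was 2.16 with the score threshold, 7.88 with at least 2 kb, -2.34 joined, -19.8 in the series list, 5.72 against the rest of the arm, 0.500, 7.21, 9.79 and 1.12 without 2L, 3L, X and 3R, and -15.3 and 10.0 with 0.5 and 2 Mb. That in median width was 607 bp with the score threshold, 469 with at least 2 kb, 383 joined, 206.5 in the series list, 377.8 against the rest of the arm, 224.5, 164.8, 320.0 and 358 without 2L, 3L, X and 3R, and 324.5 with 2 Mb. That in median score was 0.0405 against the rest of the arm, -0.0122, -0.00913 and 0.0151 without 2L, 3L and X, and -0.0201 and 0.0292 with 0.5 and 2 Mb. The outermost 50 kb minus the next 4 Mb, -19.9 points, was -17.8 with the score threshold, -17.3 with at least 2 kb, -21.2 joined, -28.1 in the series list, -16.0 against the rest of the arm, -24.2, -13.3 and -21.8 without 2L, 3L and 3R, -21.4 for 25 kb and -16.9 for 100 kb. The outermost 250 kb minus the other 750 kb, -22.1 points, was -23.8 with the score threshold, -20.6 with at least 2 kb, -23.6 joined, -26.4 in the series list, and -25.1, -20.2, -17.6 and -25.4 without 2L, 3L, X and 3R. The Jaccard difference of 0.0596 was smaller than its SD over arms (0.0603), so shifts below that SD say little about stability. It ran from 0.0370 without 3L to 0.0892 with the score threshold. Shares of clusters, which are another measure, differed by 0.0295 with at least 1 bp shared and by 0.000364 with 50% reciprocal overlap. No paired analysis was possible because ChIP and input libraries share numbers but inputs carry no cluster list. Since depth is unknown, a stretch without clusters is one without a call.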
